A study of Homo sapiens with 22 samples.

Results

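The S100 genes described here are the 10 human S100 genes S100A2, S100A3, S100A4, S100A6, S100A10, S100A11, S100A13, S100A14, S100A16 and S100P, out of 58735 genes in the human table. They were listed by symbol from their levels across all 6 groups of the study, so their levels and changes are a description and carry no p-value. All 10 passed the filter of FPKM 1 or more in at least 3 samples, and 11 further human S100 genes of the table serve as comparison. The tumours were xenografts of H3122, an established ALK-positive non-small cell lung cancer line, grown as 1 line in immunodeficient NSG mice or in hHGF-NSG mice, a strain named for human HGF, the ligand of the MET receptor. Tumours were therapy-naive or had received the ALK inhibitor alectinib for 2 or 6 weeks. The human table held 4 libraries in each NSG group, 3 of hHGF-NSG naive, 4 of hHGF-NSG 2 weeks and 3 of hHGF-NSG 6 weeks. The labels give no dose, no age of the mice and no statement that replicates came from separate animals, so a p-value here reflects only how these libraries vary. Every group shares the line and the NSG background, hosts that lack T, B and NK cells but keep myeloid cells.

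S100 proteins are small calcium-binding proteins with a pair of EF-hand motifs each. They mostly work as dimers that change shape with calcium and then bind target proteins, among them annexins, non-muscle myosin and p53, and some are secreted and act on receptors such as RAGE. Most of the family lies in a single cluster on the long arm of chromosome 1, and epithelial cells and their carcinomas express many of its members at high levels.

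Between 10688632 and 19065656 human reads per library could be recovered from the FPKM values (fragments scaled by gene length and library size), and 895826 to 5766509 mouse reads. Mouse reads made up 5.5% to 13.48% of all reads in the naive libraries and 8.71% to 28.95% in the treated ones. All 9 lung adenocarcinoma and epithelial markers were present in every group, with a summed level of 2575 to 4019 FPKM in naive and 1245 to 1746 FPKM in treated libraries. Human HGF had 43 reads in the library labelled NSG naive replicate 1, against 0 to 6 in the other NSG libraries and 13 to 79 in the hHGF-NSG libraries. The NSG differences of the genes described below are given without this library in a paragraph of their own.

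Of the 10 genes, 9 lie on chromosome 1 and S100P on chromosome 4 (chr4:6693069-6697170, plus strand; GRCh38, as in the file). S100A10 (chr1:151982915-151994390) and S100A11 (chr1:152032506-152047907) lie apart from the other chromosome 1 members, which run from S100A6 (chr1:153534599-153536244) to S100A13 (chr1:153618787-153631360), all on the minus strand. The annotated span of S100A3 (chr1:153547329-153549372) falls inside that of S100A4 (chr1:153543613-153550136) on the same strand, and S100A13 overlaps S100A1 on the opposite strand. S100A6 and S100A11 each overlap an unnamed gene on the opposite strand. S100A13 also overlaps an unnamed gene on its own strand. No label states whether counting used the strand, which bears on the overlaps of opposite strands. The strand alone could not part S100A3 from S100A4. The levels of S100A3, S100A13, S100A1, S100A6 and S100A11 are uncertain to the extent that reads of their neighbours were counted with them. The processed pseudogenes of S100A11 held 0 to 3 reads per library.

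Upstream sequence is shown for S100A2, S100A3 and S100A16, which were lower in treated tumours, and for S100A11, which was higher. The lower genes shown are those with an AP-1 or TEAD motif match. S100A4 and S100A14 were also lower, and their comparable stretches, not shown, held 0 motif matches. RefSeq promoter windows (GRCh38.p14) of all 10 genes, 14 windows in all, were searched on both strands over the 250 bases before the start for an AP-1 motif (TGANTCA), a TEAD motif (GGAATG), an ETS motif (CCGGAA), a GC box (GGGCGG) and a TATA box (TATAAA). Printed are stretches of these windows free of annotated exons, on the minus strand, 5′ to 3′, with motif matches in capitals. They are chr1:153565866-153566094 for S100A2, chr1:153549373-153549508 for S100A3, chr1:153613146-153613387 for S100A16 and chr1:152037036-152037254 for S100A11. The stretches of S100A2 and S100A11 lie in introns of longer transcripts of the same gene, and that of S100A3 in an intron of S100A4.
S100A2: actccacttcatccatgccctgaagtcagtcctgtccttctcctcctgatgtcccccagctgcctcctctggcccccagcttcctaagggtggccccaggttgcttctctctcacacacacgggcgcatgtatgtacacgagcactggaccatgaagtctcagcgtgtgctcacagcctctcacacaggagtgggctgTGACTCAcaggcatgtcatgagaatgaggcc
S100A3: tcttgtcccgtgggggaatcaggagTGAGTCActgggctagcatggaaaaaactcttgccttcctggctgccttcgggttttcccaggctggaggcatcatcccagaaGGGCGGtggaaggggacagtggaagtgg
S100A16: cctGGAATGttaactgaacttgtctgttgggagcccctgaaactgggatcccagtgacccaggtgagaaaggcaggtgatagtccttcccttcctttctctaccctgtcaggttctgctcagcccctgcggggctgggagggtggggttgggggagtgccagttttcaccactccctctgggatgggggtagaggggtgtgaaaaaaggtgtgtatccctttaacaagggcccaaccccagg
S100A11: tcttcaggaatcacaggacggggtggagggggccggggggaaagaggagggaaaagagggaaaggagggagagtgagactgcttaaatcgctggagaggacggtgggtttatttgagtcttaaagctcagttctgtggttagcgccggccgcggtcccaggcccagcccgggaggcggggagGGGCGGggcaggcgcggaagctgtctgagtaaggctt
The AP-1 motif occurred in a window of S100A2 and of S100A3 alone among the 10 genes, while 6.57% of all 35116 promoter windows hold it. A TEAD motif match was in 1 window, of S100A16 (11.9% of all windows), and an ETS match in 1, of S100A6 (14.5%). The other windows of S100A2 and S100A16 held neither an AP-1 nor a TEAD match. Nor did those of S100A6 and S100A10, which were also lower. GC boxes were in 6 of the 14 windows (42.6% of all windows) and TATA boxes in 3 (10.7%), those of S100A4, S100A13 and S100P. A match describes the letters of the window and no more.

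The share of human reads from the S100 genes was lower in every treated library than in any naive one. The 10 genes together took 2.27% ± 0.237 of human reads (SD, n = 4) in NSG naive, 1.13% ± 0.174 (n = 4) at 2 weeks and 1.12% ± 0.149 (n = 4) at 6 weeks. The hHGF-NSG groups held 2.28% ± 0.265 (SD, n = 3), 1.01% ± 0.144 (n = 4) and 1.21% ± 0.0498 (n = 3). S100A6 alone made up 48.3% of these reads in NSG naive and 37.7% at 6 weeks, and 48.2% and 40.2% in hHGF-NSG. These are bulk tumours, in which fewer cells of a type and less RNA per cell cannot be told apart.

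**Figure D1:**
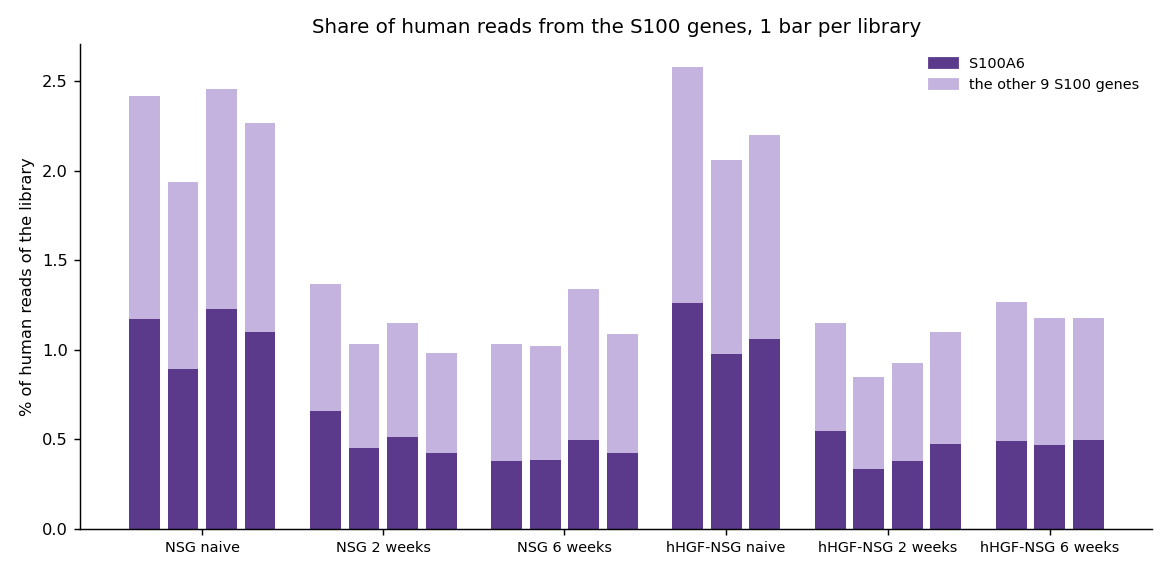
Share of the human reads of each library that came from the 10 S100 genes, in percent, 1 bar per library, with S100A6 in dark and the other 9 genes in light purple. Naive libraries hold 1.94% to 2.58% and treated libraries 0.847% to 1.37%.

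On the FPKM scale, which allows for gene length, the order in NSG naive was S100A6 (12619 FPKM), S100A14 (3489), S100A16 (2292), S100A11 (1543), S100A10 (1228), S100A4 (1027), S100A13 (186), S100A2 (157), S100P (82.4) and S100A3 (11.7). In that group the ranges of neighbours overlapped for S100A11 with S100A10, S100A10 with S100A4, and S100A13 with S100A2. At 2 and 6 weeks S100A11 stood in the second place in both hosts, above S100A14 and S100A16, though its range overlapped that of S100A14 in NSG at 6 weeks. S100A2 came after S100P in all 4 treated groups and before it in both naive groups.

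Across the 10 genes the difference in mean log2(FPKM + 1) from naive had a median of -1.44 in NSG and -1.59 in hHGF-NSG at 2 weeks, and of -1.36 and -1.23 at 6 weeks. The median over all 16029 tested genes lay between 0.02 and 0.03. At an adjusted p below 0.05 the fit called 8 of 10 lower in each host at 2 weeks, where 28% of all tested genes were lower in NSG and 26.6% in hHGF-NSG. At 6 weeks 9 were lower and 1 higher in NSG (28.8% of all genes lower, 28.8% higher), and 7 lower and 1 higher in hHGF-NSG (25.5% lower, 25.9% higher). When that naive library labelled NSG replicate 1 was left out, the counts were 8 lower at 2 weeks, and 8 lower and 1 higher at 6 weeks. Since the genes were chosen on these values, nothing is read from these counts. The deposited FPKM use scaled library sizes. With plain read totals the median of all genes moved from 0.03 to 0.22 in NSG at 2 weeks, and the all-gene split there from 4502 higher and 4487 lower to 6389 and 2906. The split was 6130 and 2912 in hHGF-NSG at 2 weeks, 6189 and 3229 in NSG at 6 weeks, and 5325 and 3118 in hHGF-NSG at 6 weeks. The 10 genes had a median of -1.17 in NSG and -1.34 in hHGF-NSG at 2 weeks on that scale, and of -1.15 and -1.06 at 6 weeks.

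**Figure D2:**
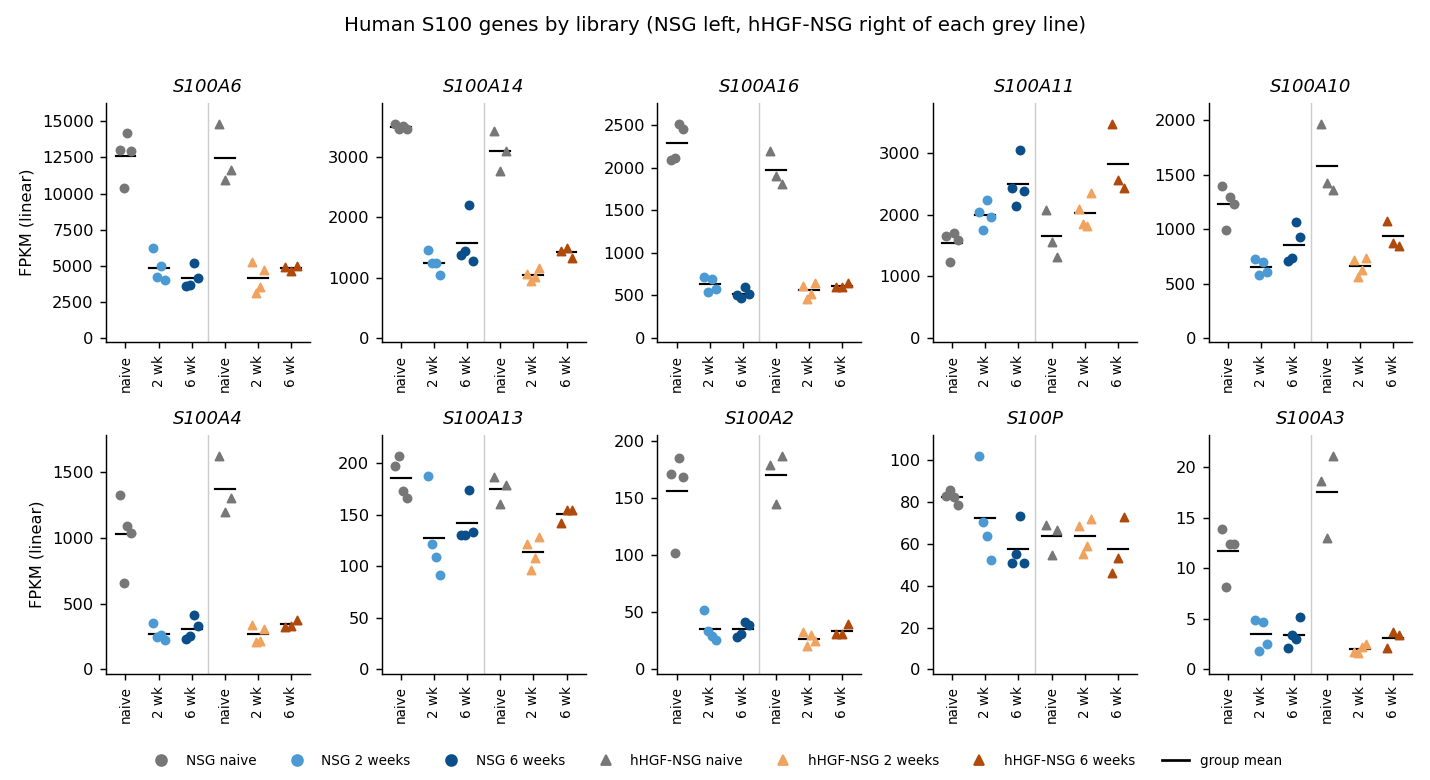
FPKM of each S100 gene in each library on a linear axis from 0, 1 point per library (circles NSG, triangles hHGF-NSG), with black lines at group means. Naive points lie above all treated points of their host for S100A2, S100A3, S100A4, S100A6, S100A14 and S100A16, while S100A11 has its highest points at 6 weeks.

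Of the S100 proteins that bind annexins, S100A6 and S100A10 were lower in treated tumours and S100A11 was higher. S100A6, or calcyclin, which also binds the calcyclin-binding protein CACYBP, stood at 13018, 10358, 14181 and 12918 FPKM in NSG naive. Its values were 6214, 4254, 4969 and 4018 FPKM at 2 weeks and at 3628, 3645, 5209 and 4160 FPKM at 6 weeks. The hHGF-NSG libraries had 14786, 10956 and 11656 FPKM when naive, 5256, 3130, 3502 and 4742 at 2 weeks, and 4942, 4647 and 4987 at 6 weeks. Naive and treated libraries did not overlap in either host, and all treated libraries held less than any naive one. The difference in mean log2(FPKM + 1) was -1.39 ± 0.18 (SE) and -1.61 ± 0.18 in NSG at 2 and 6 weeks, and -1.60 ± 0.20 and -1.35 ± 0.21 in hHGF-NSG.

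S100A10, which forms a complex with annexin A2 at the cell surface that serves as a plasminogen receptor, had 991 to 1399 FPKM in NSG naive libraries, 577 to 728 after 2 weeks and 709 to 1062 after 6. In hHGF-NSG it ranged from 1355 to 1961, 559 to 739 and 849 to 1078 FPKM. At 2 weeks the groups were apart in both hosts, with differences of -0.90 ± 0.16 and -1.25 ± 0.17 on the log2 scale. At 6 weeks NSG replicate 3 (1062 FPKM) reached into the naive range, and the differences were -0.52 ± 0.16 in NSG and -0.75 ± 0.18 in hHGF-NSG.

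S100A11, which binds annexin A1, was the single gene of the 10 with a higher level in treated tumours. Its libraries stood at 1652, 1228, 1701 and 1593 FPKM in NSG naive, 2036, 1742, 2230 and 1963 at 2 weeks, and 2437, 2137, 3038 and 2385 at 6 weeks. The hHGF-NSG libraries were at 2065, 1559 and 1315 FPKM when naive, 2082, 1851, 1814 and 2350 at 2 weeks, and 3458, 2553 and 2434 at 6 weeks. Naive and 6-week libraries did not overlap in either host, whereas 1 naive hHGF-NSG library lay within the 2-week range. The log2 difference was 0.37 ± 0.16 and 0.32 ± 0.17 at 2 weeks in NSG and hHGF-NSG, and 0.69 ± 0.16 and 0.78 ± 0.19 at 6 weeks. With plain read totals the values at 2 weeks were 0.65 and 0.56.

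S100A4 and S100A2, S100 proteins that bind non-muscle myosin and p53, were among the genes with the largest differences. S100A4, also called metastasin for its link to cell motility, was at 1324, 659, 1086 and 1039 FPKM in NSG naive, 352, 246, 264 and 225 at 2 weeks, and 233, 255, 412 and 330 at 6 weeks. The hHGF-NSG libraries had 1620, 1195 and 1299 FPKM when naive, 335, 209, 216 and 304 at 2 weeks, and 325, 333 and 372 at 6 weeks. NSG naive replicate 2 was the lowest naive library and still lay above every treated one. The log2 differences were -1.89 ± 0.21 and -1.73 ± 0.21 in NSG and -2.38 ± 0.23 and -1.99 ± 0.25 in hHGF-NSG, at 2 and 6 weeks.

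S100A2, typical of basal and squamous epithelium, was at 171, 102, 185 and 169 FPKM in NSG naive, 52.0, 33.4, 29.6 and 25.4 at 2 weeks, and 28.5, 31.1, 41.3 and 39.3 at 6 weeks. Values in hHGF-NSG were 179, 145 and 187 FPKM when naive, 32.7, 20.5, 30.6 and 24.7 at 2 weeks, and 30.7, 30.8 and 39.7 at 6 weeks. All treated libraries lay below all naive ones. The log2 differences were -2.14 ± 0.21 and -2.11 ± 0.21 in NSG and -2.62 ± 0.23 and -2.31 ± 0.24 in hHGF-NSG. The summed level of 7 squamous markers was 2.93 to 27.5 FPKM in NSG naive and 14.3 to 47.4 in hHGF-NSG naive. In treated libraries it was 0.997 to 4.81, which overlapped the NSG naive range. DSG3 was at 0 in both naive groups and IVL in NSG naive, and the part of these cells in the S100A2 values was not tested.

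S100A14 and S100A16 are epithelial members that lie next to each other. S100A14 was at 3534, 3458, 3506 and 3459 FPKM in NSG naive. At 2 weeks its libraries held 1460, 1236, 1239 and 1049 FPKM, and at 6 weeks 1371, 1440, 2202 and 1274, where replicate 3 was the highest. The hHGF-NSG libraries held 3434, 2765 and 3096 FPKM when naive, 1051, 946, 1004 and 1155 at 2 weeks, and 1442, 1483 and 1330 at 6 weeks. The log2 differences were -1.49 ± 0.14 and -1.18 ± 0.14 in NSG and -1.57 ± 0.16 and -1.12 ± 0.17 in hHGF-NSG.

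S100A16 stood at 2095, 2109, 2506 and 2457 FPKM in NSG naive, 712, 543, 695 and 579 at 2 weeks, and 502, 466, 601 and 515 at 6 weeks. In hHGF-NSG it stood at 2192, 1897 and 1813 FPKM when naive, 614, 462, 517 and 644 at 2 weeks, and 595, 600 and 647 at 6 weeks. The lowest naive library held 1813 FPKM and the highest treated one 712. The log2 differences were -1.86 ± 0.12 and -2.14 ± 0.12 in NSG and -1.82 ± 0.13 and -1.68 ± 0.14 in hHGF-NSG.

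S100A3, a cysteine-rich member known from the hair cuticle, was the least abundant of the 10, with 28 to 300 reads per library. In NSG its range was 8.16 to 13.9 FPKM when naive, 1.85 to 4.88 after 2 weeks and 2.13 to 5.19 after 6, and in hHGF-NSG 13 to 21.1, 1.61 to 2.53 and 2.14 to 3.70 FPKM. The log2 differences at 2 and 6 weeks were -1.55 ± 0.24 and -1.54 ± 0.24 in NSG, and they were -2.61 ± 0.26 and -2.18 ± 0.27 in hHGF-NSG. The span of S100A3 inside S100A4, which moved the same way, limits how far its values stand for the gene itself.

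S100A13, which takes part in the release of FGF1 and interleukin 1 alpha, had 166 to 207 FPKM in NSG naive libraries, 91.8 to 188 after 2 weeks and 130 to 174 after 6. In hHGF-NSG it ranged from 160 to 187, 96.5 to 128 and 142 to 155 FPKM. NSG groups overlapped at both times, and the log2 differences were -0.58 ± 0.16 and -0.40 ± 0.16 in NSG and -0.63 ± 0.17 and -0.22 ± 0.18 in hHGF-NSG. S100P, which binds ezrin and RAGE, had 78.4 to 85.8 FPKM in NSG naive libraries, 52.5 to 102 after 2 weeks and 50.7 to 73.3 after 6, with 54.9 to 69.0, 55.4 to 72.0 and 46.2 to 72.7 FPKM in hHGF-NSG. The log2 differences of S100P were -0.23 ± 0.17 and -0.53 ± 0.17 in NSG and 0.00 ± 0.18 and -0.16 ± 0.19 in hHGF-NSG, and the first of these was 0.04 with plain read totals.

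**Figure D3:**
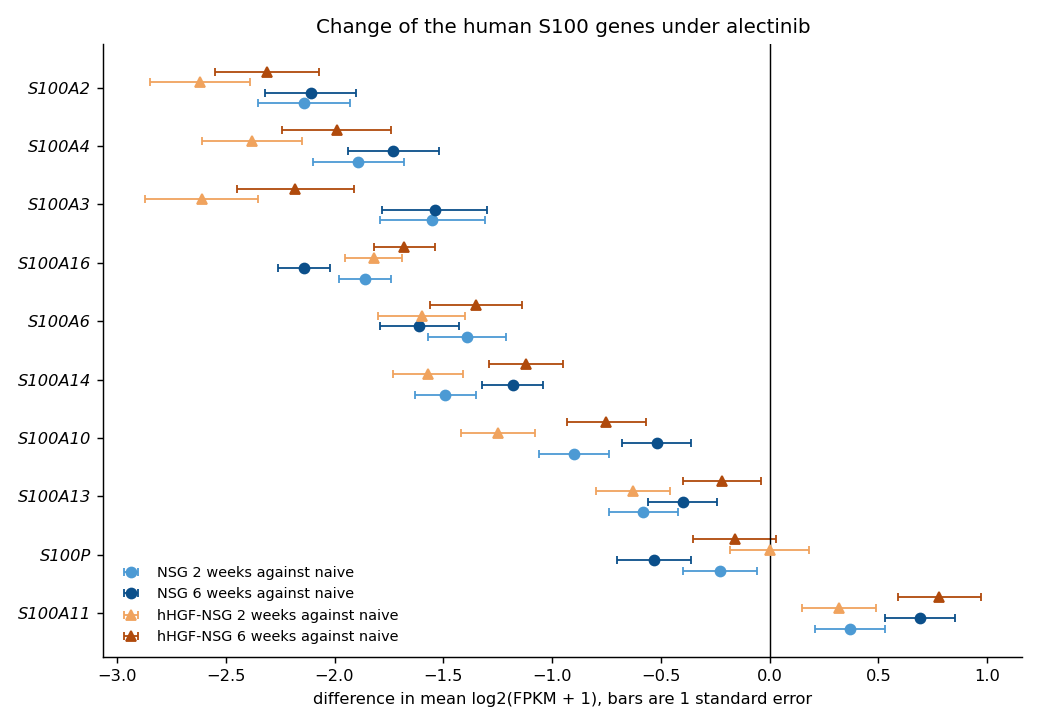
Difference in mean log2(FPKM + 1) from naive tumours for each S100 gene (horizontal axis), with bars of 1 standard error, for 2 and 6 weeks in each host (circles NSG, triangles hHGF-NSG). The points of S100A2 lie between -2.62 and -2.11, and S100A11 is the single gene with all 4 points to the right of 0.

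Between 2 and 6 weeks the fit called 0 of the 10 genes in either host, where 20.4% of all tested genes were called in NSG and 9.08% in hHGF-NSG. At an unadjusted p below 0.05 there were 3 and 4 of the 10, a threshold for which no all-gene share was worked out. Limma voom called 0 and 2 of the 10, and 3359 and 1507 of all 16029 tested genes. The differences of 6 weeks from 2 weeks ranged from -0.30 (S100P) to 0.38 (S100A10) in NSG and from -0.17 (S100P) to 0.50 (S100A10) in hHGF-NSG. In hHGF-NSG the largest were 0.50 ± 0.17 (S100A10), 0.47 ± 0.17 (S100A11), 0.45 ± 0.16 (S100A14), 0.43 ± 0.26 (S100A3) and 0.41 ± 0.17 (S100A13). The main fit called none of them. Leaving out NSG 6 weeks replicate 3 gave 2 calls in hHGF-NSG, and leaving out NSG 2 weeks replicate 1 gave 1 call in each host. All-gene counts of these fits are not given here. Since the genes were chosen on these values, nothing is read from these counts.

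Between hosts no gene of the 10 was called. The fit gave 0 of the 10 genes between hHGF-NSG and NSG in naive, 2-week or 6-week tumours, where it called 0.0187%, 0% and 0% of all tested genes. At an unadjusted p below 0.05 there were 2, 1 and 0. Limma voom called 0 of the 10 in each, and 4, 0 and 2 of all 16029 tested genes. On the log2 scale the naive hHGF-NSG means were higher for S100A3 (0.55 ± 0.26), S100A4 (0.45 ± 0.23) and S100A10 (0.35 ± 0.17). Libraries of the hosts overlapped for each of these genes. The mean of S100P was lower (-0.38 ± 0.18), without overlap. Leaving out the library with 43 HGF reads, the difference for S100A4 was 0.59 and that for S100A10 0.42. The response to treatment in hHGF-NSG minus that in NSG was -1.07 ± 0.35 for S100A3 at 2 weeks and 0.46 ± 0.19 for S100A16 at 6 weeks. In either of these comparisons 0 of all tested genes were called (0% each), by limma voom as well. Of the 10 genes, 1 in each had an unadjusted p below 0.05. All-gene shares at the unadjusted threshold were not worked out, so nothing is read from the unadjusted counts.

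Over the 22 libraries the 7 genes S100A2, S100A3, S100A4, S100A6, S100A10, S100A14 and S100A16 had Pearson correlations of 0.82 to 0.98 with each other in log2(FPKM + 1), over 21 pairs. Within groups, after each group's mean was taken off, the same pairs gave 0.17 to 0.90. S100A11 had -0.64 to -0.20 with these 7 genes over all libraries and 0.16 to 0.88 within groups. The libraries share the line and the split into naive and treated tumours, so these values are a description. The genes with the most similar pattern over the 22 libraries were KRT15 for S100A2 (r = 0.985), EBP for S100A6 (0.979), CCNB1IP1 for S100A10 (0.933) and RNF43 for S100A11 (0.905). They were RPS3A for S100A13 (0.935), RHOA for S100A14 (0.985), ENO1 for S100A16 (0.991), NUDT2 for S100P (0.882) and CHEK2 for S100A3 (0.965). The next were SLC22A18AS and HNRNPD for S100A2, KRT18 and BID for S100A6, DNAJC8 and KCMF1 for S100A10, and MAP1LC3B and LGALS3 (0.894) for S100A11. They were RPS6 and GSTO1 for S100A13, ANP32B and SET for S100A14, EIF4EBP1 and FDFT1 for S100A16, PARK7 and UQCRQ for S100P, and TPM1 and PALLD for S100A3. Within groups these similar genes had correlations from 0.60 (SET with S100A14) to 0.94 (EIF4EBP1 with S100A16), and LGALS3 had 0.85 with S100A11. High values within groups were not particular to genes that moved alike. S100A10 and S100A11 had 0.88 within groups and -0.20 over all libraries.

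The other 11 human S100 genes were not part of the list. Of these, 3 passed the filter, and S100A5 and S100A9 fell in both hosts at both times. S100A5, which lies between S100A6 and S100A4, was at 23.4, 13.3, 20.9 and 19.6 FPKM in NSG naive, 7.23, 8.34, 5.42 and 7.69 at 2 weeks, and 7.88, 7.38, 7.61 and 7.21 at 6 weeks. Its hHGF-NSG libraries held 22.7 to 32.3 FPKM untreated, 5.67 to 8.75 after 2 weeks and 8.17 to 10.9 after 6. Naive and treated libraries did not overlap in either host, and limma gave log2 differences of -1.30 ± 0.15 and -1.23 ± 0.15 in NSG (adjusted p = 4.83e-07 and 1.07e-06). In hHGF-NSG they were -1.82 ± 0.17 and -1.40 ± 0.18 (limma, adjusted p = 1.17e-08 and 1.56e-06).

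S100A9, which pairs with S100A8 to form calprotectin, was at 14.8, 12.4, 14.5 and 11 FPKM in NSG naive, from 106 to 117 reads per library. At 2 weeks it held 0.404, 0.102, 0.545 and 0 FPKM, and it had 0 reads in all 4 libraries at 6 weeks. Set against a floor of 3 reads per library, a mean of 0.37 FPKM, the 6-week level was at least 35.6-fold lower than the naive mean of 13.2 FPKM. Naive hHGF-NSG libraries held 12.7, 5.45 and 6.53 FPKM, and 0 or 1 read remained in each of the 7 treated libraries. The log2 differences at 2 and 6 weeks were -3.5 and -3.82 in NSG and -3.06 and -3.07 in hHGF-NSG. S100A9 passed the filter only through its naive libraries, so no p-value is given for it. How human and mouse reads were told apart is not stated, and a part of mouse reads in these values was not tested. Without NSG naive replicate 1, S100A5 was also called lower in NSG (-1.20 and -1.13), and S100A9 had differences of -3.45 and -3.76. The 8 human leukocyte markers summed to 0.128 to 0.362 FPKM in the naive and 0.4 to 2.40 FPKM in the treated libraries, with CD68 and CSF3R at 0 in both naive groups.

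S100A1, known from heart muscle, was called in 1 of the 4 comparisons with naive, and in NSG at both times when NSG naive replicate 1 was left out. Its levels were 2.15, 1.02, 1.61 and 1.17 FPKM in NSG naive and 3.38, 2.39, 1.87 and 3.29 at 2 weeks, ranges that overlap, with a log2 difference of 0.59 ± 0.17 (limma, adjusted p = 0.00726). The difference was 0.32 ± 0.19 in hHGF-NSG at 2 weeks (limma, adjusted p = 0.155). In NSG at 6 weeks it was 0.31 ± 0.17 (limma, adjusted p = 0.14), and 0.43 without NSG naive replicate 1 (limma, adjusted p = 0.0495). The gene overlaps S100A13 on the other strand. S100A7 had up to 17 reads, in NSG naive replicate 1, and 0 in all 6-week libraries. S100A7A, S100A7L2, S100A8, S100G and S100Z had at most 7 reads in any library, and S100A12 and S100B had 0 in all 22. S100A7, S100A7A and S100A7L2 are close paralogs, so their reads could have been split between them.

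**Figure D4:**
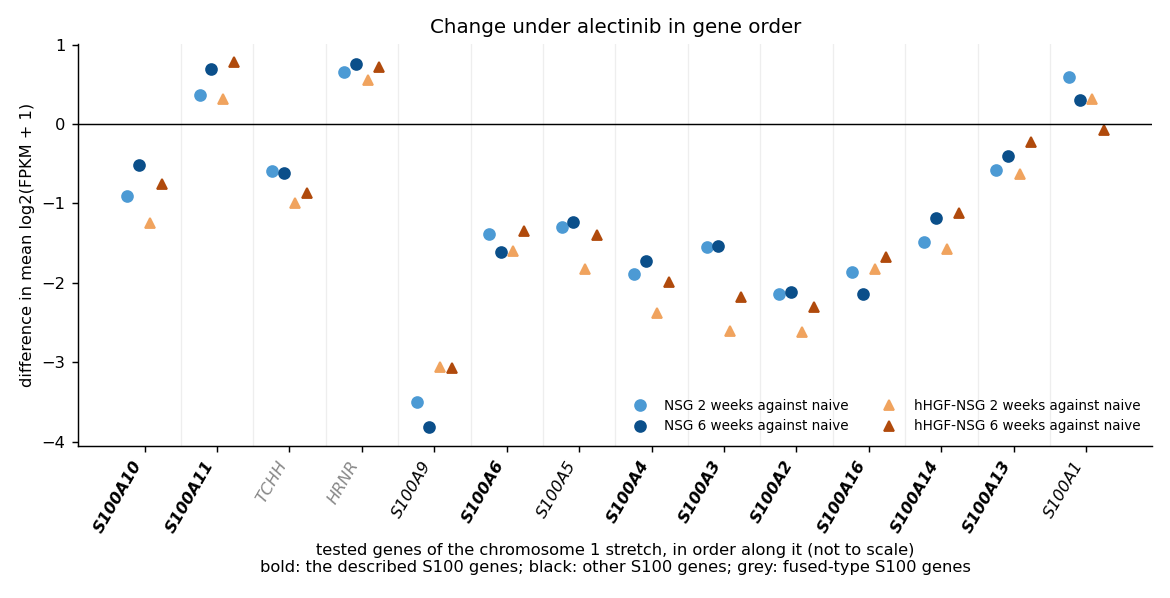
Difference in mean log2(FPKM + 1) from naive for the tested protein-coding genes of the chromosome 1 stretch from S100A10 to S100A1, in order along it and not to scale. The genes from S100A9 to S100A13 lie below 0 in all 4 comparisons, while S100A11 and HRNR lie above 0.

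In this stretch of chromosome 1, 2 tested protein-coding genes other than S100 genes lay between the outermost family members, both of the fused type, large proteins of skin and hair with an S100-like start. HRNR, or hornerin, rose by 0.66 ± 0.14 and 0.56 ± 0.15 at 2 weeks in NSG and hHGF-NSG (limma, adjusted p = 0.000529 and 0.00414), and TCHH, or trichohyalin, fell by 0.59 ± 0.15 and 1.00 ± 0.16 (adjusted p = 0.0021 and 2.19e-05). At 6 weeks HRNR was higher by 0.76 ± 0.14 and 0.72 ± 0.16 (limma, adjusted p = 0.000131 and 0.00108) and TCHH lower, at -0.61 ± 0.15 and -0.87 ± 0.17 (adjusted p = 0.00153 and 0.000236). Along the stretch the order from S100A10 was lower, higher, lower and higher up to HRNR, and then lower from S100A9 to S100A13.

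Genes of S100 partner proteins and targets moved in both directions. Of 28 listed, 24 were tested, and 4 rose and 12 fell in NSG at 2 weeks (28.1% and 28% of all genes), 4 and 11 in hHGF-NSG at 2 weeks (27.5% and 26.6%). At 6 weeks 5 rose and 14 fell in NSG (28.8% and 28.8% of all genes), and 4 rose and 11 fell in hHGF-NSG (25.9% and 25.5%). The falls counted include PLAT, which passed the filter only through its naive libraries. The list's median log2 difference was -0.31, -0.13, -0.34 and -0.18 in this order, beside 0.02 to 0.03 for all genes.

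The annexin partners of S100A11 and S100A10 went opposite ways. ANXA1, the partner of S100A11, had a mean of 9.50 ± 2.68 FPKM (SD, n = 4) in NSG naive, 65.7 ± 16.6 (n = 4) at 2 weeks and 77.0 ± 13.2 (n = 4) at 6 weeks. In hHGF-NSG it had 13.4 ± 2.99 FPKM (SD, n = 3), 52.3 ± 8.33 (n = 4) and 82.4 ± 3.41 (n = 3). It rose by 2.67 ± 0.19 and 1.90 ± 0.20 on the log2 scale at 2 weeks (limma, adjusted p = 1.93e-10 and 1.12e-07) and by 2.92 ± 0.19 and 2.56 ± 0.22 at 6 weeks (limma, adjusted p = 5.16e-11 and 5.04e-09). ANXA2, the partner of S100A10, fell in NSG from 182 ± 9.52 FPKM (SD, n = 4) to 130 ± 12.6 (n = 4) and 107 ± 17.6 (n = 4), and with hHGF-NSG hosts from 174 ± 10.9 (n = 3) to 106 ± 21.2 (n = 4) and 111 ± 3.24 (n = 3). Its log2 differences were -0.48 ± 0.12 and -0.76 ± 0.12 in NSG and -0.73 ± 0.13 and -0.65 ± 0.14 in hHGF-NSG, and the first of these lost its call with plain read totals (-0.21). ANXA11, a partner of S100A6, had differences of -0.26 to -0.04 and passed the threshold in none of the 4.

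The plasminogen activation genes around the S100A10 and annexin A2 complex were lower in treated tumours. PLAUR, the urokinase receptor, fell from 11.2 ± 3.32 FPKM (SD, n = 4) to 2.28 ± 0.479 (n = 4) and 2.17 ± 0.733 (n = 4) in NSG, and from 13.8 ± 1.97 (n = 3) to 1.40 ± 0.440 (n = 4) and 2.48 ± 0.140 (n = 3) in hHGF-NSG. Its log2 differences were -1.85 ± 0.19 and -1.92 ± 0.19 in NSG and -2.63 ± 0.21 and -2.08 ± 0.22 in hHGF-NSG (limma, largest adjusted p = 1.27e-07). PLAU, or urokinase, was at 24.9, 7.54, 26.4 and 25.2 FPKM in NSG naive and 1.77 to 8.97 in the treated libraries of both hosts, and fell by 1.86 ± 0.32, 1.71 ± 0.32, 3.32 ± 0.34 and 2.45 ± 0.37 on the log2 scale in the same order (limma, largest adjusted p = 0.00012). The 8.97 FPKM of NSG 6 weeks replicate 4 lay above the 7.54 FPKM of NSG naive replicate 2, so those groups overlapped. PLAT, the tissue-type activator, was lower in all 4 comparisons as well, from a naive mean of 1.68 ± 1.21 FPKM (SD, n = 4) in NSG and 2.64 ± 0.877 (n = 3) in hHGF-NSG.

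LGALS3, or galectin-3, rose in all 4 comparisons, from 155 ± 16.2 FPKM (SD, n = 4) to 360 ± 44.8 (n = 4) and 465 ± 49.5 (n = 4) in NSG, with log2 differences of 1.21 ± 0.13 and 1.58 ± 0.13 (limma, adjusted p = 1.63e-07 and 3.25e-09). SUGT1, a co-chaperone that binds S100A6, rose by 0.56 ± 0.10 and 0.49 ± 0.11 at 2 weeks (limma, adjusted p = 0.000109 and 0.000902) and by 0.69 ± 0.10 and 0.41 ± 0.12 at 6 weeks. MDM2, the p53 ligase, rose by 0.43 ± 0.10 and 0.37 ± 0.11 at 2 weeks (limma, adjusted p = 0.000961 and 0.00654), the latter not called without hHGF-NSG naive replicate 3 (0.22). ANXA6 rose at 6 weeks by 0.52 ± 0.13 and 0.62 ± 0.15 (limma, adjusted p = 0.00191 and 0.00161). MYH9, the myosin heavy chain bound by S100A4, fell by 1.07 ± 0.21 and 1.27 ± 0.21 in NSG and 1.37 ± 0.22 and 1.19 ± 0.24 in hHGF-NSG (limma, largest adjusted p = 0.000286). CACYBP, the partner of S100A6, had differences of -0.01 to 0.01 with standard errors of 0.13 to 0.15 and was not called. EZR, the ezrin bound by S100P, fell by 0.28 to 0.42 on the deposited scale and was called in 0 of 4 comparisons with plain read totals (-0.16 to -0.10). AHNAK, a scaffold bound by S100A10, had -0.44 ± 0.18 and -0.04 ± 0.18 in NSG and -1.20 ± 0.20 and -0.86 ± 0.21 in hHGF-NSG. The first of these AHNAK values just passed the threshold (limma, adjusted p = 0.047), and leaving out any of 15 single libraries ended the call, among them NSG 2 weeks replicate 1 (-0.34).

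EF-hand proteins outside the S100 family bind calcium through the same motif. Of 26 listed, 22 were tested, with 6 higher and 6 lower in NSG at 2 weeks (28.1% and 28% of all tested genes) and 6 and 7 in hHGF-NSG (27.5% and 26.6%). At 6 weeks 4 were higher and 9 lower in NSG (28.8% and 28.8%), and 4 and 5 in hHGF-NSG (25.9% and 25.5%). Nothing particular to the list is read from these counts. CETN2, a centrin of centrioles and basal bodies, rose by 1.61 ± 0.16 and 1.70 ± 0.17 at 2 weeks (limma, adjusted p = 3.67e-08 and 5.77e-08). SRI, or sorcin, rose by 1.13 ± 0.14 and 1.17 ± 0.15 (limma, adjusted p = 9.8e-07 and 1.88e-06), and PDCD6 by 0.97 ± 0.08 and 0.95 ± 0.08 (limma, adjusted p = 8.32e-10 and 4.07e-09). CALU, or calumenin of the secretory pathway, fell by 1.52 ± 0.12 and 1.34 ± 0.13 (limma, adjusted p = 8.25e-10 and 2.01e-08). These 4 genes were called in the same direction at 6 weeks, with 1.00 and 1.13 for CETN2, 1.45 and 1.43 for SRI, 0.98 and 0.92 for PDCD6, and -1.11 and -1.27 for CALU. Smaller changes at 2 weeks were those of NUCB2 (0.44 and 0.63), RCN1 (-0.49 and -0.44), EFHD2 (-0.42 and -0.48) and CIB1 (-0.35 and -0.37), and at 6 weeks those of EFHD2 (-0.66 and -0.46) and CALM3 (-0.64 and -0.38), in NSG and hHGF-NSG. With plain read totals the calls of CIB1 (-0.08 and -0.12) and EFHD2 (-0.16 and -0.24) at 2 weeks were lost, as were those in hHGF-NSG of RCN1 at 2 weeks (-0.21) and of EFHD2 (-0.29) and CALM3 (-0.21) at 6 weeks. CIB1 and EFHD2 also lost calls without single libraries, among them hHGF-NSG naive replicate 1 (-0.23 for CIB1 at 2 weeks) and hHGF-NSG naive replicate 3 (-0.34 for EFHD2 at 2 weeks). NUCB2 lost its NSG call without NSG naive replicate 4 (0.37).

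The mouse table, from the same tumours, reports the S100 genes of the host cells. It lists 17 mouse S100 genes, of which 11 were tested, over 20 libraries, with 3 in NSG naive and 3 in NSG 6 weeks. At 2 weeks 0 rose and 2 fell in each host (3.32% and 4.48% of mouse genes in NSG, 3.49% and 3.56% in hHGF-NSG). At 6 weeks 1 rose and 3 fell in NSG (8.81% and 8.59%), and 1 rose and 2 fell in hHGF-NSG (9.67% and 8.12%). From 2 to 6 weeks 3 were called in NSG and 0 in hHGF-NSG (3.89% and 1.08%). Between hosts 0 were called in naive, 1 at 2 weeks and 0 at 6 weeks (0.042%, 0.371% and 0.252%), and 0 for the difference in response at 2 or 6 weeks (0% and 0.007%). S100a8 and S100a9, which form calprotectin in neutrophils, fell in both hosts at both times. S100a9 was at 103, 175 and 162 FPKM in NSG naive, 29.8, 11.8, 9.59 and 26.4 at 2 weeks, and 0, 2.20 and 0 at 6 weeks. In hHGF-NSG tumours S100a9 stood at 135, 32.8 and 21.2 FPKM when naive, 0, 1.92, 0 and 1.15 at 2 weeks, and 0.794, 0.337 and 0.876 at 6 weeks. Treated libraries lay below naive ones in each host, and the log2 differences were -2.97 ± 0.56 and -6.61 ± 0.60 in NSG and -4.89 ± 0.56 and -4.83 ± 0.60 in hHGF-NSG (limma, largest adjusted p = 0.00301). At 2 weeks it was lower in hHGF-NSG than in NSG by 3.54 ± 0.52 (limma, adjusted p = 0.00221). The difference between hosts in the 2-week response itself was not called (-1.92 ± 0.80; limma, adjusted p = 0.689).

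S100a8 was at 43.2, 71.6 and 44.9 FPKM in NSG naive and 56.0, 17.9 and 5.51 in hHGF-NSG naive, and at 0 to 16.1 in treated libraries. Its log2 differences were -3.18 ± 0.75, -4.71 ± 0.80, -3.69 ± 0.75 and -3.22 ± 0.80 in the same order as above (limma, largest adjusted p = 0.0132). Naive libraries held 10 to 67 reads of it and 29 to 120 of S100a9, so these folds are coarse. Without NSG naive replicate 3 the fall of S100a8 at 2 weeks in NSG was not called (-2.95), nor was that at 6 weeks in hHGF-NSG without hHGF-NSG naive replicate 1 (-2.43). With a pseudocount of 0.1 neither call held for S100a8 (-4.09 and -4.00), nor that of S100a9 in NSG at 2 weeks (-3.04). The summed level of 6 neutrophil markers moved with both genes, at 25.7 to 53.0 FPKM in NSG naive and 15.8 to 26.3 in hHGF-NSG naive against 8.82 to 23.2 in treated libraries, with Mpo at 0 in both naive groups. Their part in the result was not tested. Human S100A8 had 0 reads in all naive libraries, while S100A9 and S100a9 were both low in treated tumours. Naive libraries held 106 to 117 reads of human S100A9 in NSG and 48 to 99 in hHGF-NSG. They held 81 to 120 and 29 to 80 reads of mouse S100a9. Whether reads of one species were counted for the other was not tested. No label states how reads of the 2 species were told apart.

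The mouse genes named like the abundant human members moved less. S100a6 had 258 to 292 FPKM in NSG naive libraries, 288 to 448 after 2 weeks and 172 to 255 after 6, with no call against naive in either host (log2 differences of -0.40 to 0.39). It fell by 0.79 ± 0.21 from 2 to 6 weeks in NSG (limma, adjusted p = 0.0392), a call lost without any 1 of 5 libraries, NSG 2 weeks replicates 1, 2 and 3 and NSG 6 weeks replicates 1 and 2. S100a10, S100a11 and S100a13 had differences from naive of -0.11 to 0.51 and were not called. S100a16 fell in NSG at 6 weeks by 0.70 ± 0.22 (limma, adjusted p = 0.0327), a call lost without NSG naive replicate 1 or 3 or NSG 6 weeks replicate 1 or 2, and was at -0.45 ± 0.22 in hHGF-NSG (adjusted p = 0.173). S100a4 had 0 to 8 reads per library, S100a14 0 to 4, S100a3 0 to 12, and S100a2 and S100a5 had 0 reads in all 20. S100a4, S100a7a and S100b were not called against naive in either host.

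S100a1 rose in both hosts at 6 weeks. It was at 53.5, 45.5 and 47.3 FPKM in NSG naive, 52.3, 26.6, 44.2 and 35.3 at 2 weeks, and 100, 90.3 and 105 at 6 weeks. The hHGF-NSG libraries were at 44.6, 51.1 and 45.2 FPKM when naive, 45.9, 38.2, 86.2 and 51.9 at 2 weeks, and 76.7, 121 and 134 at 6 weeks. All 6-week libraries lay above all naive ones, by 1.00 ± 0.26 and 1.18 ± 0.26 on the log2 scale (limma, adjusted p = 0.0127 and 0.00408). Summed adipocyte markers were at 86.9 to 446 FPKM in naive and 1260 to 2697 in 6-week mouse libraries, and their part in this result was not tested.

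With NSG naive replicate 1 left out, the 10 genes took 2.22% ± 0.263 of human reads in NSG naive (SD, n = 3). Their NSG differences from naive moved by at most 0.14 on the log2 scale. At 2 and 6 weeks they were -1.37 and -1.59 for S100A6, -0.84 and -0.46 for S100A10, 0.41 and 0.73 for S100A11, -1.76 and -1.59 for S100A4, and -2.09 and -2.05 for S100A2. They were -1.49 and -1.18 for S100A14, -1.90 and -2.18 for S100A16, -1.46 and -1.45 for S100A3, -0.55 and -0.37 for S100A13, and -0.23 and -0.52 for S100P. Of 78 NSG differences of other named genes, 74 kept their call or lack of one, 3 lost it (AHNAK and EFHD2 at 2 weeks and S100a16 at 6 weeks) and 1 gained it (S100A1 at 6 weeks). The differences at 2 and 6 weeks without this library were 2.79 and 3.03 for ANXA1, -0.51 and -0.80 for ANXA2, -1.74 and -1.58 for PLAU, -1.79 and -1.86 for PLAUR, and -1.01 and -0.94 for PLAT. HRNR had 0.69 and 0.79 and TCHH -0.52 and -0.54. Among mouse genes S100a8 had -3.31 and -4.84, S100a9 -3.20 and -6.84, and S100a1 -0.27 and 1.07. S100a10 moved from -0.02 to 0.28 and from -0.10 to 0.20, and S100a4 from -0.61 to 0.06 and from -0.60 to 0.08, all of them differences that were not called.

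**Figure D5:**
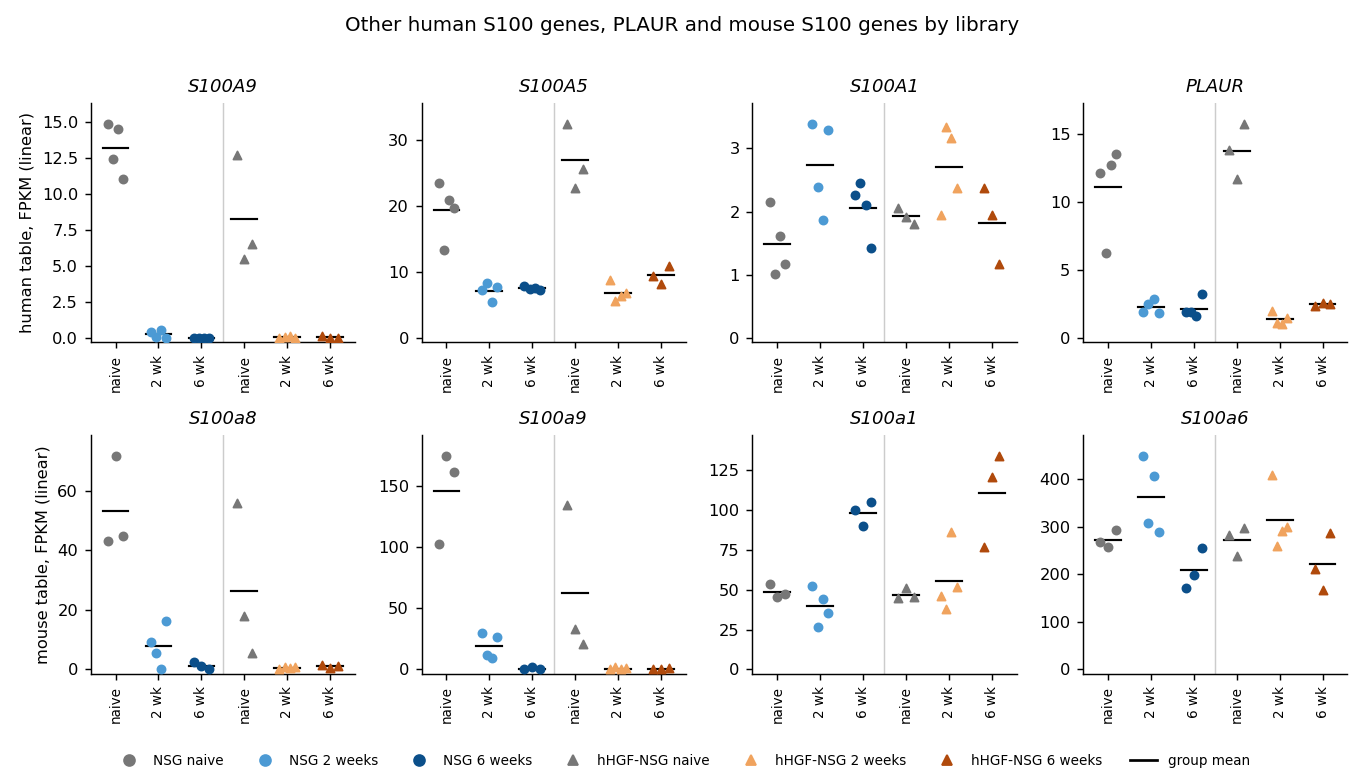
FPKM on linear axes, 1 point per library, of the human genes S100A9, S100A5, S100A1 and PLAUR (upper row) and of the mouse genes S100a8, S100a9, S100a1 and S100a6 (lower row, 3 libraries in NSG naive and NSG 6 weeks), with black lines at group means. S100A9, S100a8 and S100a9 are near 0 at 6 weeks in both hosts, while S100a1 is highest at 6 weeks.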

How the data were processed

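Bulk RNA sequencing values of 22 xenograft samples were used. The authors deposited FPKM per gene in a human table (hg38) and a mouse table (mm10, 20 samples), per the file headers and the submitters' processing notes, which also name DESeq2 without a role. Aligner, strandedness and species separation: not given in the sources used here. Whole reads were recovered from the FPKM steps (100% whole within 0.05) and used for depth and the limma voom alternative. Kept were the 16029 human and 14287 mouse genes that reached FPKM 1 in 3 or more samples, compared as log2(FPKM + 1), which understates changes of low genes. Group means were estimated with limma 3.58.1 (R 4.3.3) in a single model per table, with a variance trend. Tests were two-sided, adjusted by Benjamini-Hochberg within each comparison over all genes of a table, at 0.05, and the fit was tested on simulated data. Errors of log2 differences are standard errors. With 0 reads, up to 3 reads per library are possible, for counting error only.

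The members and lists were chosen with earlier results of these data known. Named were all members, every other S100 gene with reads, the list genes called in both hosts with the largest smaller change (up to 4 per direction), ANXA1, ANXA2, ANXA11, AHNAK, CACYBP and EZR, all tested mouse S100 genes, and the most similar genes by Pearson's r (those of S100A4 are not reported here). Alternatives were a pseudocount of 0.1, no filter, median ratio rescaling, omission of each library and a replicate block, with limma voom and plain read totals chosen after seeing the data. Promoters are from RefSeq, exons from GENCODE 29. Analyses used Python 3.11.15.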

Additional observations from a re-analysis of the deposited data

Results flagged for a closer look

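Among 174 groups of 4 libraries over 49 genes, 7 held a library far from the other 3, where chance gives about 1 in 20. S100A13 was at 174 FPKM in NSG 6 weeks replicate 3 against 130 to 133 in the other libraries, and MDM2 at 12.2 in the same library against 10.3 to 10.6. NUCB2 was at 11 FPKM in NSG naive replicate 2 against 6.19 to 6.70. PLAU was at 7.54 FPKM in NSG naive replicate 2 against 24.9 to 26.4, and at 8.97 in NSG 6 weeks replicate 4 against 3.80 to 4.44. Among mouse genes, S100a4 was at 5.92 FPKM in NSG 2 weeks replicate 1 against 0 in the others, and S100a13 at 94.9 in the same library against 51.1 to 57.9.

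Against the naive mean of its host, mouse S100b at 6 weeks was lower in every NSG library and higher in every hHGF-NSG library. Naive and 6-week libraries overlapped in both hosts, however. They held 3.32 to 7.60 and 1.74 to 5.76 FPKM in NSG, and 0.596 to 6.18 and 2.97 to 3.54 in hHGF-NSG. The difference between hosts was 1.30 on the log2 scale, and the fit did not call it (limma, adjusted p = 0.79). S100b had 0 to 26 reads per library.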

How the results depend on the processing

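The count of the 10 S100 genes called against naive, in either direction, stayed within 1.5 times its value in both hosts at both times under the other 6 settings and with each library left out. The split by direction moved more. With plain read totals 7 were lower in each host at 2 weeks, and at 6 weeks 6 in NSG and 7 in hHGF-NSG. S100A11 was called higher in each of these comparisons, beside the all-gene splits given above for that scale. For 6 weeks against 2 weeks the count of the 10 genes called was 0 in NSG, 0 to 1 with a library left out and 1 with plain read totals. In hHGF-NSG it was 0, with 0 to 2 when a library was left out and 2 with limma voom. With the replicate number as a block it was 1 there (S100A10). No label states what the replicate numbers stand for. Same-numbered libraries of different groups had correlations of -0.33 to 0.26 over 51 pairs, 7 of them over 0.1. These values do not settle whether the numbers mark a shared batch or pairing. Over the 51 other S100, fused-type, partner and EF-hand genes tested, 6 were called in NSG between 2 and 6 weeks (20.4% of all tested genes). With a library left out 4 to 10 were called (10 without hHGF-NSG naive replicate 3). Plain read totals gave 10, and 3378 of all 16029 tested genes. In hHGF-NSG 6 of these 51 were called (9.08% of all tested genes), 2 to 8 with a library left out (2 and 3 without hHGF-NSG 6 weeks replicates 1 and 3). Of mouse S100 genes, 2 were called in NSG at 2 weeks against naive, 1 to 2 with a library left out and 0 with a pseudocount of 0.1. Between 2 and 6 weeks in hHGF-NSG 0 were called, 0 to 1 with a library left out and 1 with limma voom, and between hosts at 2 weeks 1 was called, 1 to 2 with a library left out (2 without NSG 2 weeks replicate 3). Of the 90 differences of the 10 genes, 17 moved by more than the spread with plain read totals and 1 each with a pseudocount of 0.1 and with limma voom (S100A3 in hHGF-NSG at 2 weeks, -3.06 and -3.11). No value past the threshold reversed its direction. The causes were not tested. S100A3, S100A9, S100a4, S100a8 and S100a9 rest on few reads, which limits their precision.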
